A study of Mus musculus with 12 samples.

Results

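The CC chemokines are small secreted proteins that guide leukocytes along a gradient, and 10 of their genes are described here in BV-2 microglia: Ccl2, Ccl3, Ccl4, Ccl5, Ccl6, Ccl7, Ccl9, Ccl12, Ccl17 and Ccl22. They were taken by gene name, as the probe sets that the annotation of the Affymetrix Mouse 430 2.0 array assigns to these genes. They were represented by 12 of the 45101 probe sets, or 10 of 18194 named genes, with 2 probe sets each for Ccl6 and Ccl9 and 1 for each of the others. BV-2 is an immortalised line of mouse microglia, so all arrays come from 1 cell line. Cells were kept for 24 h with 50 µM luteolin, a plant flavonoid given in DMSO, together with 50 ng/ml LPS, with LPS alone, with luteolin alone, or were left untreated as control. Each of the 4 conditions had 3 arrays, numbered 1 to 3, and all conditions share the same line and culture time. Whether control cells received DMSO is not given in the sources used here.

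CC chemokines act through G protein-coupled receptors, and several ligands share a receptor. Ccl2, Ccl7 and Ccl12 attract monocytes through CCR2, Ccl3, Ccl4 and Ccl5 attract monocytes and T cells, and Ccl17 and Ccl22 attract T cells through CCR4. Microglia release many of them when LPS, a component of the bacterial outer membrane, engages Toll-like receptor 4, which signals through NFkB, interferon regulatory factors and AP-1.

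Signals are RMA intensities on a linear scale. An array had a median signal of 52.2 to 56.4, and 50.9% to 52.5% of its probe sets reached 50, the minimum signal the study's methods use. Any pair of arrays of a condition correlated with an r of 0.978 to 0.996. Of the microglia and macrophage markers, 9 or 10 of 11 with a probe set reached a mean signal of 50 in each condition, and their summed signals ran from 39599 to 54966 over the 12 arrays. P2ry12, which marks resting microglia in the brain, lay under 50 in 3 of the 4 conditions. Summed signals of the 6 lists of other cell types ran up to 331 on an array. Of the 10 chemokine genes, 9 reached a mean of 50 in at least 1 condition and were tested with limma among 12071 genes. Ccl22 did not pass. Differences below are on the log2 scale with limma's standard error (SE), adjusted p-values are over all 12071 genes with a threshold of 0.05, and mean signals are geometric means of 3 arrays. The fit was repeated with the replicate number as a block term, because arrays that share a number deviated together.

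RefSeq promoters (GRCm38.p6, 250 bases before to 50 after the start) were matched for 6 of the 10 genes, Ccl3, Ccl6, Ccl9, Ccl12, Ccl17 and Ccl22. Promoters of 4 are printed because these genes differ in their LPS response and lie on the same chromosome: Ccl12 (chr11:82101595-82101894, plus strand), Ccl3 (chr11:83649329-83649628, minus strand), Ccl9 (chr11:83578587-83578886, minus strand) and Ccl6 (chr11:83593038-83593337, minus strand). Capitals mark matches, on either strand, to an NFkB core (GGNNNTTCC), an interferon response core (GAAANNGAA) or an AP-1 site (TGANTCA).
Ccl12: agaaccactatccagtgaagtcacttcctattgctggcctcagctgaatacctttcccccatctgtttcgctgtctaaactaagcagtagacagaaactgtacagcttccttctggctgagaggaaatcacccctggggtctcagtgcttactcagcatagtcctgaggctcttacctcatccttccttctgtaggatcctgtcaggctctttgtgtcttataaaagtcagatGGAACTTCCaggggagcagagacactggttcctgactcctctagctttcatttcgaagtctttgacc
Ccl3: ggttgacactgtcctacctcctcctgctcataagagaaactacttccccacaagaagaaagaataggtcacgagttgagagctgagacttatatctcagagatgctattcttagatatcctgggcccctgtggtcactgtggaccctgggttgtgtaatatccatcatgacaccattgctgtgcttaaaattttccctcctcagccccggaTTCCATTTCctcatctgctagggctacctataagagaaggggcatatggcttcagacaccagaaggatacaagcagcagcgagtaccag
Ccl9: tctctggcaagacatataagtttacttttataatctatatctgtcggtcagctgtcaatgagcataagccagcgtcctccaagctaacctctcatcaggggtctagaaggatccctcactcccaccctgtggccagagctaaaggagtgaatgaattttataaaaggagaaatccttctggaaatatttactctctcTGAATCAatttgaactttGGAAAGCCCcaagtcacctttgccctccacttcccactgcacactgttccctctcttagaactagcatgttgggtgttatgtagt
Ccl6: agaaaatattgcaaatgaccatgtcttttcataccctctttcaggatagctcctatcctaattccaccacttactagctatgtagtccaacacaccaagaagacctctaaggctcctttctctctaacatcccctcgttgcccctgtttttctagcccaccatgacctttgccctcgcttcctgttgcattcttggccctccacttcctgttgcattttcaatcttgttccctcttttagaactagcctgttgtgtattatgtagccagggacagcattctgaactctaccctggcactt
The NFkB core was found once in Ccl12, from base -17, and once in Ccl9, on the opposite strand from base -35, counted from the start site. Ccl9 also held an AP-1 match from base -53, and Ccl3 an interferon response core on the opposite strand from base -39. No match overlapped another. Ccl6, Ccl17 and Ccl22 held none of these letters in this window. Of 32851 RefSeq promoters of this length, 18.5% held the NFkB core, 8.56% the interferon response core and 7.81% the AP-1 site. Matches describe the letters only and are no evidence of binding.

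**Figure D1:**
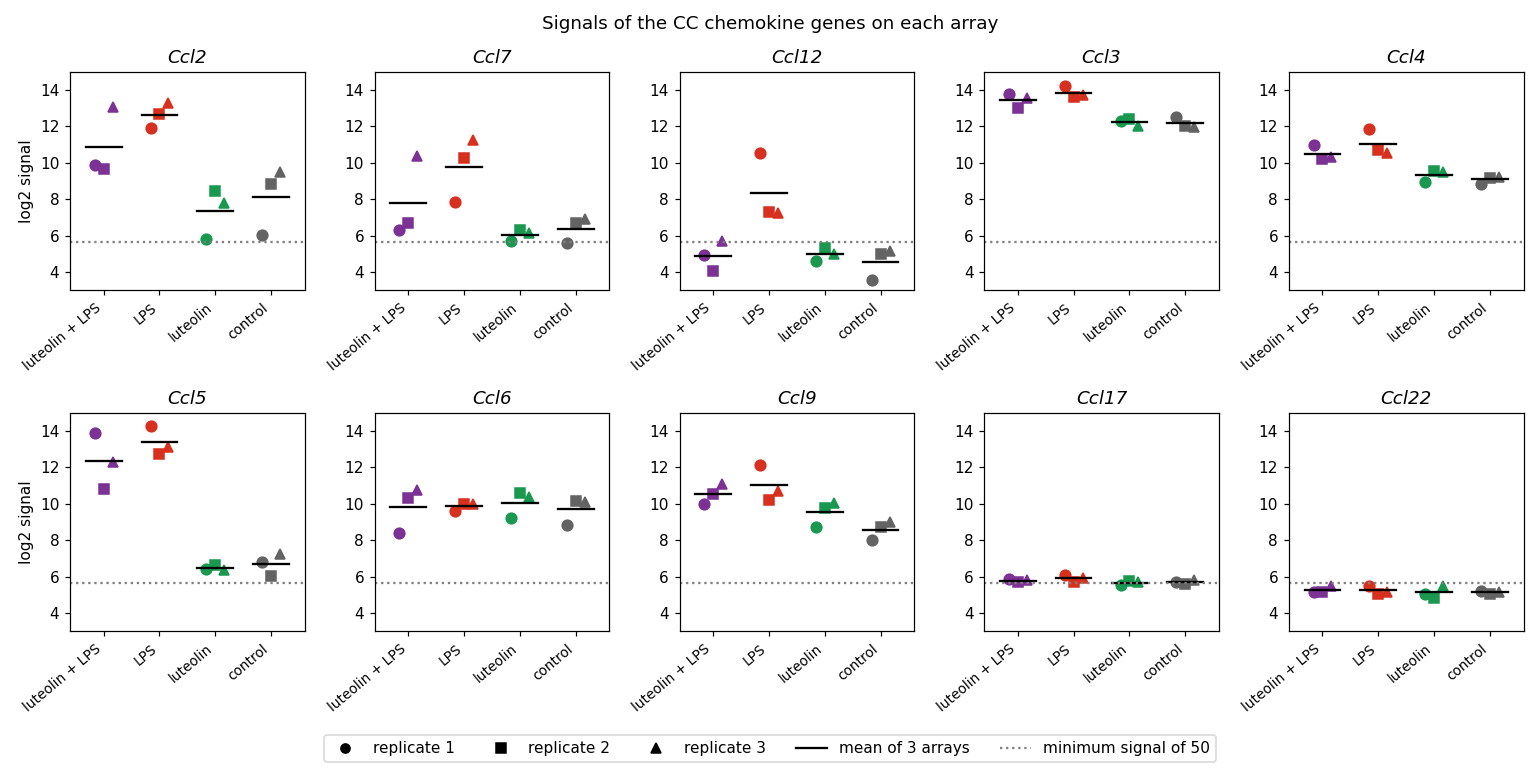
Signals of the 10 CC chemokine genes on the 12 arrays, as log2 signal on the vertical axis, for luteolin + LPS, LPS, luteolin and control. Symbols are replicate numbers, bars the mean of 3 arrays and the dotted line a signal of 50. For 7 genes, Ccl2, Ccl7, Ccl12, Ccl3, Ccl4, Ccl5 and Ccl9, all LPS arrays lie above all control arrays, and Ccl12 alone has all luteolin + LPS arrays below all LPS arrays.

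LPS raised most of these chemokine transcripts in BV-2 cells. Against control, 6 of the 9 tested genes passed as higher in LPS-treated cells (Ccl2, Ccl3, Ccl4, Ccl5, Ccl9 and Ccl12) and none as lower, where 1.96% of all genes passed as higher. With the replicate block, Ccl7 passed as well, giving 7 of 9, where 4.3% of all genes did. Arrays of the 2 conditions did not overlap for these 7 genes, higher with LPS, as for 11.5% of all genes. The median difference of the 9 genes was 2.45, and that of all genes was -0.04. Ccl12 reached the mean of 50 through the LPS arrays alone (means of 30.0, 328, 31.7 and 23.9 for luteolin + LPS, LPS, luteolin and control), so the filter itself required it to be highest there. Without Ccl12, 5 of 8 genes passed, and 6 of 8 with the replicate block. RNA came from whole cultures, so the number of expressing cells and the RNA per cell cannot be told apart.

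Among the ligands of CCR2, Ccl2, the main monocyte attractant of the brain, had signals of 3826, 6534 and 9946 in LPS-treated cells, against 65.8, 459 and 715 in control cells. The lowest LPS array lay well above the highest control array, and control arrays differed widely among themselves. The difference of 4.50 (SE 1.07) was 22.6-fold, with an adjusted p of 0.0431 by limma and 0.0042 with the replicate block.

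Ccl7, a close relative of Ccl2 that also attracts monocytes, had signals of 228, 1235 and 2426 in LPS-treated cells, against 48.2, 103 and 119 in control cells. The groups did not overlap, but array 1 of LPS lay far under the other 2. The difference was 3.39 (SE 1.04), with an adjusted p of 0.0954 by limma and 0.0171 with the replicate block.

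Ccl12, a mouse ligand of CCR2 also known as MCP-5, had signals of 1471, 157 and 153 in LPS-treated cells, against 12.1, 31.8 and 35.6 in control cells. All 3 control arrays lay under 50, so the size of the rise is a bound, and array 1 of LPS stood far above the other 2. With signals under 50 set to 50, Ccl12 was at least 6.56-fold higher with LPS. The measured difference was 3.78 (SE 0.79), with an adjusted p of 0.0250 by limma, and it was 2.70 without array 1 of LPS (adjusted p = 0.0242 by limma).

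Among the macrophage inflammatory proteins and their relatives, Ccl5, which attracts T cells and monocytes, had the widest difference of the 9 genes. Its signals were 19969, 6849 and 8924 in LPS-treated cells, against 113, 67.1 and 154 in control cells. Low control signals and high LPS signals were seen in every replicate. The difference was 6.67 (SE 0.65), or 102-fold, with an adjusted p of 0.0007 by limma.

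Ccl3, also called MIP-1α, was already bright in untreated cells. Its signals were 19198, 12580 and 13706 in LPS-treated cells, against 5947, 4207 and 3972 in control cells. The response was even between replicates, with differences of 1.69, 1.58 and 1.79 within replicate numbers 1 to 3, and averaged 1.69 (SE 0.24, adjusted p = 0.0032 by limma).

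Ccl4, or MIP-1β, is the neighbour of Ccl3 on the chromosome. It had signals of 3695, 1685 and 1494 in LPS-treated cells, against 468, 582 and 606 in control cells. All LPS arrays lay above all control arrays, most of all array 1. The difference was 1.94 (SE 0.33, adjusted p = 0.0089 by limma), or 3.84-fold.

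Ccl9, a CCR1 ligand known in the mouse as MIP-1γ, had signals of 4536, 1201 and 1705 in LPS-treated cells, against 258, 430 and 516 in control cells. Array 1 was the highest of the LPS group and the lowest of the control group. The difference was 2.45 (SE 0.51, adjusted p = 0.0234 by limma), and the other probe set of Ccl9 gave 2.58 (SE 0.53). Without array 1 of LPS it was 1.89 (adjusted p = 0.0502 by limma).

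Ccl6, another mouse CCR1 ligand, did not follow its neighbours. Its signals were 775, 1032 and 1002 in LPS-treated cells, against 457, 1135 and 1098 in control cells. The groups overlapped, and the difference was 0.16 (SE 0.59), with a 95% confidence interval of -1.13 to 1.46 and an adjusted p of 0.901 by limma. The other probe set gave 0.11 (SE 0.57). The interval leaves room for a change of more than 1 in either direction.

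The CCR4 ligands stayed near the minimum signal. Ccl17 had signals of 67.3, 52.9 and 61.3 in LPS-treated cells, against 51.9, 48.8 and 56.6 in control cells. These groups overlapped, with a difference of 0.20 (SE 0.12, adjusted p = 0.364 by limma). Ccl22 lay between 29.0 and 45.3 on all 12 arrays, so only an upper bound on its level was measured.

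The calls for Ccl2, Ccl9 and Ccl12 depended on single arrays, while those for Ccl3, Ccl4 and Ccl5 held with any of the 12 arrays left out. Without control array 1, 2 or 3, the adjusted p by limma was 0.127, 0.0831 and 0.0608 for Ccl2, 0.0863, 0.0653 and 0.0549 for Ccl9, and 0.0893, 0.0619 and 0.0605 for Ccl12, leaving 3 genes called each time. Ccl9 also missed the threshold without LPS array 3 (adjusted p = 0.0624 by limma), and Ccl2 without any 1 of the LPS arrays or without luteolin array 2 or 3, where the highest adjusted p by limma was 0.133. A fit on the LPS and control arrays alone likewise called only Ccl3, Ccl4 and Ccl5.

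By the order of protein-coding genes in the RefSeq annotation, 8 of the 10 genes lie on chromosome 11 and the CCR4 ligands on chromosome 8. Ccl2 and Ccl7 are next to each other, followed by Ccl11, Ccl12 and Ccl8. Ccl5, Ccl9, Ccl6, Ccl3 and Ccl4 form the second run, in this order. Ccl6, with its difference of 0.16, therefore lies between Ccl9 and Ccl3, which both passed as higher with LPS. Ccl8, a further monocyte attractant beside Ccl12, had signals of 110, 39.3 and 46.6 in LPS-treated cells, against 24.7, 20.1 and 30.1 in control cells, with LPS array 1 alone above 50. Its difference as measured was 1.25 (SE 0.32, adjusted p = 0.0530 by limma and 0.0313 with the replicate block, where 4.3% of all genes passed as higher). Ccl8 reached a mean of 50 with LPS alone (58.6, against 33.2, 28.7 and 24.6 for luteolin + LPS, luteolin and control). The filter itself therefore required it to be highest there. Ccl11, an eosinophil attractant, had mean signals of 12.9 with LPS and 13.6 in control cells, both under 50.

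When luteolin was given together with LPS, the mean of each of the 9 tested genes lay under that of LPS alone. None passed the test in the fit without a block. At an unadjusted p under 0.05, 1 of them was lower without the block and 4 with it, where 14.9% and 22.5% of all genes differed in either direction. The median difference of the 9 genes was -0.53, against 0.02 over all genes, where 0.356% of genes passed as lower. With the replicate block, Ccl12 passed as lower, 1 of 9 genes, where 2.84% of all genes did. Ccl12 was also the only gene whose luteolin + LPS arrays all lay under the LPS arrays, as was the case for 8.04% of all genes. Since it entered the test through its LPS arrays, part of its direction is fixed by the filter, and none of the other 8 genes passed with or without the block.

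**Figure D2:**
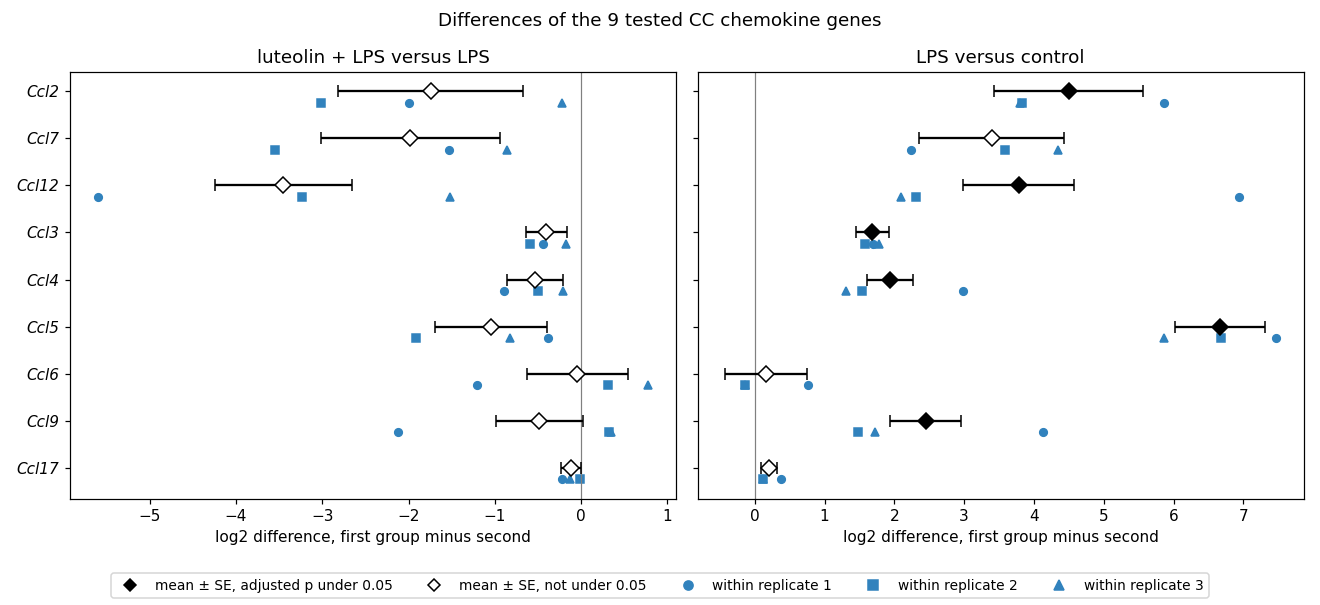
Log2 differences of the 9 tested CC chemokine genes for luteolin + LPS versus LPS (left) and LPS versus control (right). Diamonds with bars are means with limma's standard error, filled where the adjusted p is under 0.05, and blue symbols are the differences within each replicate number. All 9 means are below 0 on the left with no filled diamond, and 6 filled diamonds lie above 0 on the right. Ccl12 is drawn as measured, with 5 of its 6 control and luteolin + LPS arrays under 50.

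Ccl12 had signals of 30.2, 16.7 and 53.2 with luteolin + LPS, against 1471, 157 and 153 with LPS alone. Arrays 1 and 2 of luteolin + LPS lay under 50, close to where the control and luteolin arrays lay. The difference was -3.45 (SE 0.79), with an adjusted p of 0.0739 by limma and 0.0489 with the replicate block. With signals under 50 set to 50 it was -2.68, and without array 1 of LPS the measured difference was -2.37 (adjusted p = 0.0685 by limma).

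Ccl2 had signals of 963, 806 and 8562 with luteolin + LPS, against 3826, 6534 and 9946 with LPS. Arrays 1 and 2 were well under their LPS partners, while array 3 was close to its partner. Within replicate numbers 1 to 3 the differences were -1.99, -3.02 and -0.22, and the mean was -1.74 (SE 1.07, adjusted p = 0.499 by limma).

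Ccl7 was lower in each replicate, by differences of -1.53, -3.55 and -0.86 within replicate numbers 1 to 3. Its signals were 79.1, 106 and 1336 with luteolin + LPS, against 228, 1235 and 2426 with LPS. The groups overlapped through array 3, and the mean difference was -1.98 (SE 1.04, 95% confidence interval -4.26 to 0.30, adjusted p = 0.411 by limma). Over the 12 arrays, the deviations of Ccl2 and Ccl7 from their condition means correlated with an r of 0.79. On each array both genes were read from the same RNA, so this r is a description.

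Ccl5 had signals of 15327, 1821 and 5032 with luteolin + LPS, against 19969, 6849 and 8924 with LPS. It was lower in every replicate, most in replicate 2, and the groups overlapped because replicate 1 was high in both. The mean difference was -1.04 (SE 0.65, adjusted p = 0.505 by limma).

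Ccl3 and Ccl4 were also lower in 3 of 3 replicates, by small amounts. Ccl3 had signals of 14124, 8377 and 12161 with luteolin + LPS, against 19198, 12580 and 13706 with LPS, a difference of -0.40 (SE 0.24, adjusted p = 0.473 by limma). Ccl4 had signals of 1990, 1190 and 1295 with luteolin + LPS, against 3695, 1685 and 1494 with LPS, a difference of -0.53 (SE 0.33, adjusted p = 0.494 by limma). Both pairs of groups overlapped.

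Ccl9 and Ccl6 had no common direction across replicates. Ccl9 had signals of 1038, 1503 and 2178 with luteolin + LPS, against 4536, 1201 and 1705 with LPS, and the differences within replicates were -2.13, 0.32 and 0.35. Ccl6 had signals of 335, 1277 and 1722 with luteolin + LPS, against 775, 1032 and 1002 with LPS, and its differences within replicates were -1.21, 0.31 and 0.78. In both genes replicate 1 alone was lower. The mean differences were -0.48 (SE 0.51) for Ccl9 and -0.04 (SE 0.59) for Ccl6, with adjusted p-values of 0.725 and 0.986 by limma, and the other probe sets gave -0.58 (SE 0.53) and 0.23 (SE 0.57). Ccl17 had signals of 57.9, 52.6 and 56.0 with luteolin + LPS, and its difference from LPS was -0.12 (SE 0.12).

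In resting cells, luteolin moved none of the 9 genes past the threshold, and none had arrays that did not overlap, where 8.29% of all genes did not overlap as higher and 11.3% as lower. No gene of the 12071 passed (0% in either direction), 1097 had an unadjusted p under 0.05, and with the replicate block 0.282% of all genes but none of the 9 passed. At an unadjusted p under 0.05, 0 of the 9 genes were found with or without the block. Their median difference was 0.07, and -0.01 over all genes.

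Ccl9 had the smallest adjusted p in this comparison. Its signals were 426, 893 and 1075 with luteolin, against 258, 430 and 516 in control cells. It was higher with luteolin in each replicate, by 0.72, 1.05 and 1.06, though the lowest luteolin array lay just under the middle control array. The mean difference was 0.95 (SE 0.51, 95% confidence interval -0.17 to 2.06, adjusted p = 0.639 by limma and 0.427 with the replicate block).

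Ccl2 lay at 56.6, 357 and 226 with luteolin, against 65.8, 459 and 715 in control cells, a difference of -0.75 (SE 1.07). It was lower in 3 of 3 replicates with a wide interval of -3.11 to 1.62. Ccl6 was higher in 3 of 3 replicates, at 590, 1532 and 1349 with luteolin, against 457, 1135 and 1098 in control cells (difference 0.37, SE 0.59). Ccl4 was likewise higher in 3 of 3, at 499, 758 and 722 with luteolin, against 468, 582 and 606 in control cells (difference 0.24, SE 0.33). The other probe set of Ccl6 gave 0.72 (SE 0.57). None of these differences passed the test.

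The other genes had no common direction between replicates or lay near the minimum signal. Ccl3 had signals of 5102, 5441 and 4102 with luteolin, within 0.07 of control on the log2 scale (SE 0.24). Ccl5 had 87.0, 100.5 and 83.4 with luteolin, a difference from control of -0.23 (SE 0.65). Ccl7 had 52.5, 79.5 and 70.8 with luteolin, a difference of -0.33 (SE 1.04). The arrays of Ccl3, Ccl5 and Ccl7 overlapped with those of control cells. Ccl12 had 24.6, 39.7 and 32.6 with luteolin and lay under 50 on all luteolin and control arrays, so no difference could be measured. Ccl17 had 47.1, 54.7 and 52.8 with luteolin, a difference of -0.02 (SE 0.12).

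The response to LPS in cells that also had luteolin was smaller in mean for all 9 genes, a difference tested further on. Luteolin + LPS against luteolin passed as higher for Ccl3 and Ccl5, 2 of 9 genes, where 0.804% of all genes did, and with the replicate block for Ccl2 also, 3 of 9, where 1.74% of all genes did. Arrays did not overlap for Ccl2, Ccl3, Ccl4 and Ccl5, 4 of 9 genes, higher with luteolin + LPS, as for 7.36% of all genes. The median difference of the 9 genes was 1.16, and that of all genes was 0.00. Ccl5 kept a large response, at 15327, 1821 and 5032 with luteolin + LPS, against 87.0, 100.5 and 83.4 with luteolin, a difference of 5.85 (SE 0.65, 57.8-fold, adjusted p = 0.0012 by limma). Ccl3 was 2.33-fold higher with luteolin + LPS than with luteolin, a difference of 1.22 (SE 0.24, adjusted p = 0.0286 by limma). This call was lost without luteolin + LPS array 1 or 3 or any 1 of the luteolin arrays, with adjusted p-values by limma of 0.0745 to 0.149, and with only the groups compared (adjusted p = 0.0717 by limma). For Ccl2 the difference was 3.50 (SE 1.07), with an adjusted p of 0.164 by limma and 0.0184 with the replicate block, and for Ccl4 it was 1.16 (SE 0.33, adjusted p = 0.129 by limma). Ccl12 had no measurable response in luteolin-treated cells, with 5 of the 6 arrays under 50.

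**Figure D3:**
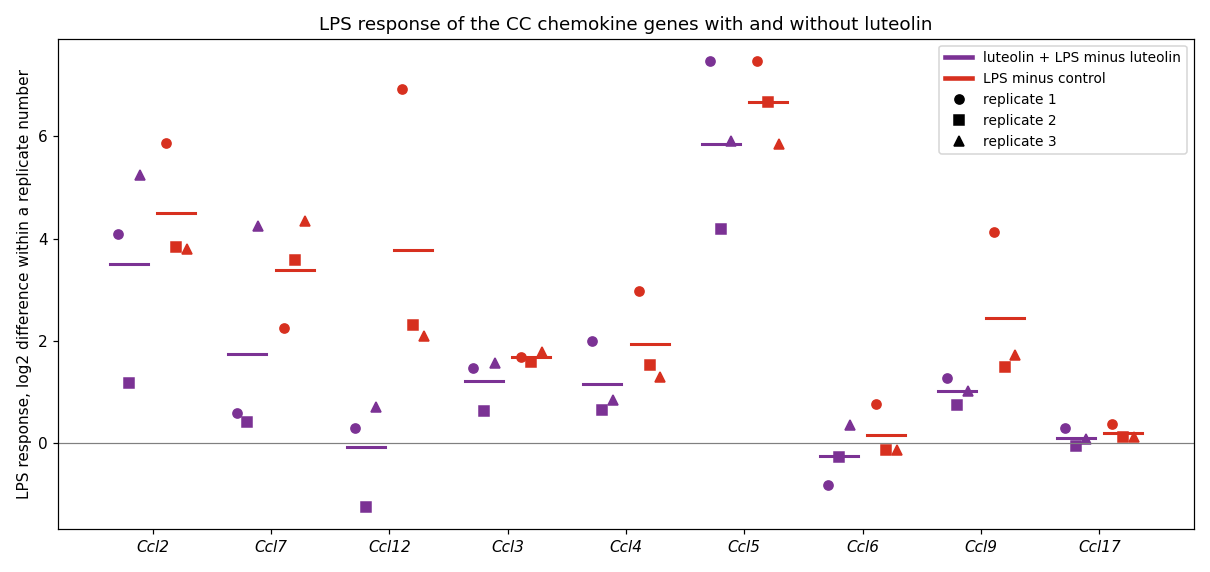
LPS response of the 9 tested CC chemokine genes within each replicate number, as log2 differences, for luteolin + LPS minus luteolin (purple, left of each pair) and LPS minus control (red, right). Horizontal bars are means of 3 replicates and symbols are replicate numbers. Mean responses with luteolin run from -0.24 for Ccl6 to 5.85 for Ccl5, and those without luteolin from 0.16 for Ccl6 to 6.67 for Ccl5. Ccl12 is drawn as measured, with its control and luteolin arrays under 50.

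Within replicate numbers, the LPS response with luteolin was under that without it in 3 of 3 replicates for Ccl3, Ccl4, Ccl7, Ccl9, Ccl12 and Ccl17, and in 2 of 3 for Ccl2, Ccl5 and Ccl6. With signals under 50 set to 50, Ccl12 responded by 0, 0 and 0.09 with luteolin, against at least 4.88, 1.65 and 1.61 without it. Ccl9 responded by 1.28, 0.75 and 1.02 with luteolin, against 4.13, 1.48 and 1.72 without it. Ccl3 responded by 1.47, 0.62 and 1.57 with luteolin, against 1.69, 1.58 and 1.79 without it. In Ccl3, Ccl9 and Ccl12 the 3 responses with luteolin lay under the 3 without it, in Ccl3 only just (1.57 against 1.58). For Ccl12, part of this is fixed by the filter. How many of all genes had smaller responses in 3 of 3 replicates, or responses without overlap, was not counted. These orders are therefore a description.

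The test of the difference itself, the interaction of luteolin and LPS, called none of the 9 genes and no gene of the 12071 (0% by limma, and none with the replicate block), with 1 of the 9 and 380 of all genes at an unadjusted p under 0.05. That 1 gene was Ccl12 (unadjusted p = 0.0055 and adjusted p = 0.999 by limma), whose other 3 condition means lay under 50. Its interaction was -2.68 with signals under 50 set to 50, against -3.86 as measured (SE 1.12). For genes with all condition means above 50 the largest were -1.65 (SE 1.46) for Ccl7, -1.43 (SE 0.72) for Ccl9 and -0.99 (SE 1.52) for Ccl2. All 9 interactions were under 0 and had a median of -0.81, against 0.03 over all genes. A difference in the effect of luteolin between LPS-treated and resting cells was therefore not shown for any of them.

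Replicate number carried part of the spread. On arrays of number 1, Ccl2, Ccl4, Ccl6, Ccl7, Ccl9 and Ccl12 were lowest in both luteolin and control cells, whereas Ccl3, Ccl4, Ccl5, Ccl9, Ccl12 and Ccl17 were highest in LPS-treated cells. With all 4 arrays of number 1 left out, a step chosen after the values were seen, Ccl12 with luteolin + LPS against LPS was -2.38 (adjusted p = 0.0376 by limma), Ccl9 was 0.34 and Ccl6 0.54. Deviations from the condition means correlated over the 12 arrays with an r of 0.82 between Ccl12 and each of Ccl4 and Ccl9, 0.74 between Ccl3 and Ccl5 and -0.59 between Ccl3 and Ccl6. Ccl12 lay under 50 on all luteolin and control arrays and on 2 of the 3 luteolin + LPS arrays. Its order there and most of its deviations thus rest on signals under the minimum. On each array all genes were read from the same RNA, so the values only describe which genes deviated together.

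The genes whose log2 signals were most like each chemokine over the 12 arrays were looked up among 12062 other genes. Ccl3 was closest to Ccrl2 (r = 0.98), Cybb and Fyb, of which Cybb encodes the catalytic subunit of the phagocyte NADPH oxidase. Ccl5 was closest to Psmd10 (r = 0.99), Slfn2 and Acod1, the enzyme that makes itaconate, and Ccl4 to Gbp2 (r = 0.95), Erap1 and Tnf, the inflammatory cytokine. Ccl2 was closest to Slc2a6 (r = 0.97), Ddx24 and Dtx2, Ccl7 to Ppp4r2 (r = 0.97), Batf and Rpl39l, and Ccl12 to Dusp14 (r = 0.97), Rabl3 and Rgs3. Ccl9 was closest to Krt42 (r = 0.96), Ptpn14 and Dmtn, Ccl6 to Dph3 (r = 0.96), Cdc26 and Dnajb1, and Ccl17 to Asic1 (r = 0.94), Plcxd1 and Jph2. The condition means are part of each r, so genes that LPS moved resemble one another.

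Receptors for CC chemokines were mostly low. Of 15 receptor genes listed, 14 had a probe set and 7 were tested, and 1 passed as higher with LPS, where 1.96% of all genes did. This was Ccrl2, an atypical receptor that binds chemerin. Its signals were 1360, 547 and 1324 with luteolin + LPS, 4473, 885 and 1143 with LPS, 181, 94.0 and 95.4 with luteolin and 143, 83.7 and 101.2 in control cells. On the log2 scale, Ccrl2 was 3.96 higher in LPS-treated than in control cells (SE 0.57, adjusted p = 0.0037 by limma) and 3.08 higher with luteolin + LPS than with luteolin (adjusted p = 0.0226 by limma). With luteolin + LPS against LPS it differed by -0.73 (SE 0.57, adjusted p = 0.611 by limma). Ccr10, the skin-homing receptor for Ccl27 and Ccl28, was 0.67 higher with LPS than in control (adjusted p = 0.146 by limma and 0.0437 with the replicate block). The median receptor difference was 0.21 for LPS against control and 0.07 for luteolin + LPS against LPS. Of 11 other CC ligands, 8 had a probe set and 5 were tested, and none passed in any comparison without the block. For luteolin + LPS against LPS, Ccl25, a thymus-expressed ligand, differed by 0.78 (SE 0.27, adjusted p = 0.199 by limma). Ccl8 was above 50 on LPS array 1 alone of these 6 arrays, and differed by -0.38 with signals under 50 set to 50.

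**Figure D4:**
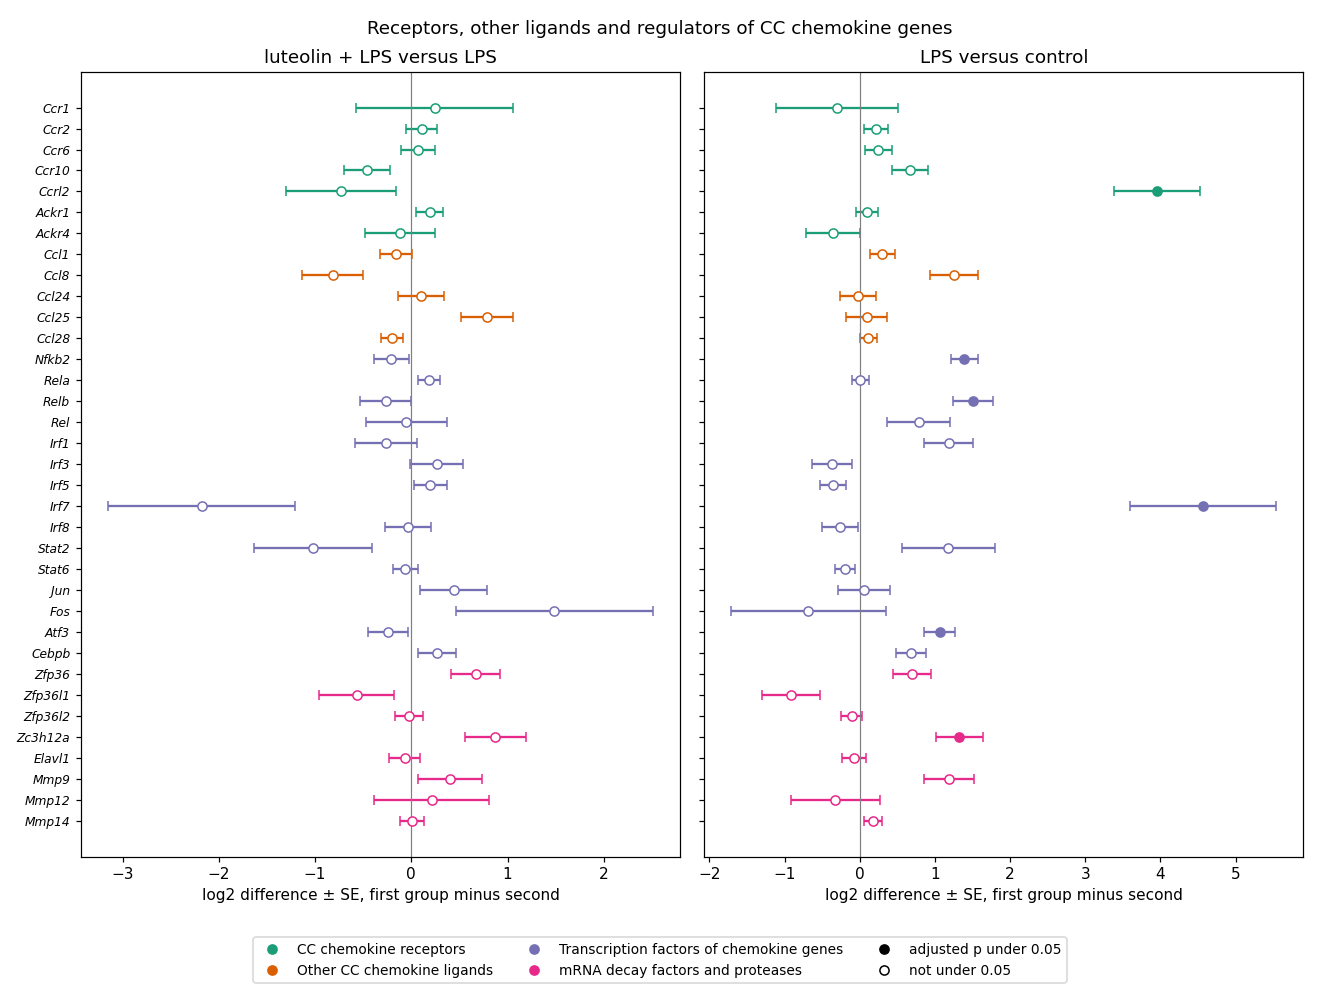
Log2 differences with limma's standard error for tested receptors, other CC ligands, transcription factors and mRNA decay factors or proteases, for luteolin + LPS versus LPS (left) and LPS versus control (right). Filled points have an adjusted p under 0.05. On the right Ccrl2, Nfkb2, Relb, Irf7, Atf3 and Zc3h12a are filled, and on the left none is.

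Among the transcription factors that act on chemokine genes, 18 were listed, 16 had a probe set and 15 were tested. With LPS against control, 4 passed as higher and none as lower, where 1.96% of all genes did as higher, and 6 with the replicate block, where 4.3% did. The list had a median difference of 0.68. Irf7, a master factor of the type I interferon response, differed by 4.57 (SE 0.97, adjusted p = 0.0263 by limma), Relb and Nfkb2, subunits of NFkB, by 1.51 (SE 0.26) and 1.39 (SE 0.18), and Atf3, a stress-induced repressor of inflammatory genes, by 1.06 (SE 0.21). Irf1 and Cebpb passed with the block only, at 1.18 and 0.68, with adjusted p-values by limma of 0.0685 and 0.0833 without it. With luteolin + LPS against luteolin, 3 passed as higher, where 0.804% of all genes did: Relb at 2.07, Nfkb2 at 1.73 and Cebpb, a factor of macrophage genes, at 0.98. None passed with luteolin + LPS against LPS, where Irf7 differed by -2.18 (SE 0.97, adjusted p = 0.326 by limma). Fos, a subunit of AP-1, had signals of 703, 1625 and 1187 with luteolin + LPS, against 46.3, 1203 and 1108 with LPS, and its difference of 1.49 (SE 1.03) was -0.06 without LPS array 1.

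Irf7 had signals of 2913, 82.8 and 759 with luteolin + LPS, against 5054, 2036 and 1649 with LPS. With luteolin + LPS, replicate 2 was the lowest for Irf7, as it was for Ccl2, Ccl3, Ccl4, Ccl5, Ccl12 and Ccl17. It was not the lowest for Ccl6, Ccl7 and Ccl9. Other listed transcription factors, among them Nfkb2, Relb, Irf1 and Stat2, were lowest in replicate 2 as well. Jun, Fos and Rel were instead highest in replicate 2, and Irf3 and Stat6 were not lowest there. How many of all genes were lowest on that array was not counted, so the shared order is a description. Nfkb2 had signals of 721, 457 and 716 with luteolin + LPS, against 797, 660 and 694 with LPS, and the groups overlapped.

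Of 10 genes for mRNA decay factors and for proteases that trim chemokines, all had a probe set and 8 were tested. Zc3h12a, the ribonuclease regnase-1 that degrades cytokine transcripts, alone passed as higher with LPS, where 1.96% of all genes did, and 2 did with the replicate block, where 4.3% did. Its signals were 464, 330 and 411 with luteolin + LPS, 406, 159 and 159 with LPS, 92.4, 95.7 and 68.8 with luteolin and 76.2, 92.5 and 92.9 in control cells. On the log2 scale it was 1.33 higher with LPS than in control (SE 0.32, adjusted p = 0.0433 by limma) and 2.23 higher with luteolin + LPS than with luteolin (SE 0.32, adjusted p = 0.0050 by limma). With luteolin + LPS against LPS it was above LPS in 3 of 3 replicates, by 0.87 in mean (SE 0.32, adjusted p = 0.229 by limma). Zfp36, or tristetraprolin, which binds AU-rich chemokine transcripts, differed by 0.67 in that comparison (SE 0.25, adjusted p = 0.251 by limma), with 1269, 1341 and 1114 for luteolin + LPS and 1052, 773 and 581 for LPS. The median difference of these 8 genes was 0.11 for luteolin + LPS against LPS and 0.05 for LPS against control.

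With luteolin against control and in the interaction, no gene of the 4 lists passed, with or without the replicate block. In resting cells, Relb had signals of 105.5, 78.0 and 66.7 with luteolin, against 166, 150.3 and 122 in control cells. The groups did not overlap, and the difference was -0.82 (SE 0.26, adjusted p = 0.389 by limma). Jun went the other way, with signals of 1415, 1470 and 1462 with luteolin, against 578, 1126 and 1083 in control cells. These arrays did not overlap either, and the difference was 0.70 (SE 0.35, adjusted p = 0.601 by limma). Nfkb2 had signals of 211, 169 and 183 with luteolin, against 300.5, 252 and 267 in control cells, again without overlap, a difference of -0.54 (SE 0.18, adjusted p = 0.394 by limma). Irf1, Atf3, Rel and the ligand Ccl25 were higher with luteolin without overlap, by 0.17, 0.35, 0.13 and 0.53, and did not pass. Zfp36 had signals of 1208, 711 and 641 with luteolin, against 536, 430.5 and 485 in control cells, a difference of 0.77 (SE 0.25, adjusted p = 0.396 by limma). Its 3 luteolin arrays all lay above the 3 control arrays. The lists held 7 receptors, 5 other ligands, 15 transcription factors and 8 decay factors or proteases that were tested. Of all genes, 8.29% had no overlap as higher and 11.3% as lower in this comparison.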

How the data were processed

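BV-2 microglia of 4 conditions, 3 arrays each, were measured on Affymetrix Mouse 430 2.0 arrays. The authors summarised the probes with RMA, which includes background correction and quantile normalisation, and deposited the result as linear intensity values, which hides any shift common to most genes. The extraction protocol in the labels speaks of PUER cells and the methods write LPS for both agents of the joint treatment, and the other labels (BV-2, luteolin + LPS) were followed. Log2 values were taken, 34958 probe sets named 1 gene (932 named several and 9211 none here), and the probe set with the highest mean stood for a gene. Genes with a geometric mean of at least 50 in 1 or more conditions (12071 of 18194) were fitted with limma 3.58.1 in R 4.3.3, 4 group means over 12 arrays, with Benjamini-Hochberg adjustment. The test was also run on simulated data with known changes. That noise was independent between arrays and, for variable genes, smaller than in the data, so the run does not measure error rates here. Arrays of the same replicate number correlated in their deviations from the condition means in 18 of 18 pairs (r of 0.101 to 0.591), which is how the block was chosen, and the replicates are described as independent stimulation experiments. The methods' own test, on single probes, could not be run on probe-set values. The members and lists were chosen with earlier results of these data known. All chemokine genes are named. From each list, up to 4 genes that passed with the largest difference are named, or up to 2 as values where none passed, Irf1, Cebpb and Ccr10 being added after their values were seen. Nfkb2 where it had not passed, and genes named only for their overlap or their lowest replicate, also stand outside this rule. Precision is limited by the number of arrays. Plots used matplotlib 3.10.9 under Python 3.11.15.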

Additional observations from a re-analysis of the deposited data

Results flagged for a closer look

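Ccl4, the gene of MIP-1β, was lower with luteolin + LPS than with LPS in 3 of 3 replicates and higher with luteolin than in control cells in 3 of 3 replicates, which drew attention to it. The differences within replicates were -0.89, -0.50 and -0.21 in LPS-treated cells and 0.09, 0.38 and 0.25 in resting cells. The interaction was -0.78 (SE 0.46, unadjusted p = 0.120 and adjusted p = 0.999 by limma), so the difference between the 2 states did not pass the test.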

How the results depend on the processing

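Each result was computed again with 1 choice changed at a time, with 1 exception. Setting signals under 50 to 50 also let all 18194 genes past the filter, Ccl22 included. In that setting Ccl2 and Ccl9 kept their differences of 4.50 and 2.45 with LPS against control. They were no longer called (adjusted p = 0.132 and 0.0866 by limma). The fit without the filter, over the same 18194 genes, called 5 of the chemokine genes, Ccl9 and Ccl12 among them. Why the count was lower with signals under 50 set to 50 was not tested. Of 396 differences of single genes under settings other than leaving out 1 array, 365 kept their direction and side of the threshold, and with 1 array left out in turn 495 of 540 did. No difference that had passed the test changed direction. In part this was fixed in advance. The replicate block, the fit without the filter, the fit on the groups compared and the fit of single probe sets return the same difference as the main fit. Leaving out an array of a condition that is not compared does so too. There, only the side of the threshold could change. The number of chemokine genes called with LPS against control, 6, was 3 in a fit on the groups compared alone and 3 with signals under 50 set to 50, and ran from 3 to 7 with 1 array left out. For luteolin + LPS against LPS, none was called, but 1 was with the replicate block, with array weights, and with all 4 arrays of replicate 1 left out (chosen after seeing the data), each time Ccl12, and 0 with 1 array left out. For luteolin + LPS against luteolin, 2 were called, 1 with the groups compared alone, 1 with signals under 50 set to 50, 4 with array weights, and 1 to 3 with 1 array left out. For luteolin against control and for the interaction no setting called any. Results that changed direction had not passed. With array weights, Ccl6 was -0.0655 with LPS against control and 0.16 with luteolin + LPS against LPS, Ccl9 was 0.21 with luteolin + LPS against LPS, and Ccl12 was 0.092 with luteolin + LPS against luteolin. With the mean of its probe sets, Ccl6 was 0.10 with luteolin + LPS against LPS, and with signals under 50 set to 50, Ccl12 was 0.0295 with luteolin + LPS against luteolin. Without all 4 arrays of replicate 1, Ccl6 was -0.13 with LPS against control, 0.54 with luteolin + LPS against LPS, 0.0453 with luteolin + LPS against luteolin and 0.18 in the interaction, Ccl9 was 0.34 with luteolin + LPS against LPS, and Ccl17 was 0.0324 with luteolin against control. The cause was not tested. The counts without Ccl12, the Ccl12 and Ccl8 values with a minimum of 50 within replicates, and the Fos value without LPS array 1 were likewise added after seeing the data.

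With 1 array left out, the ranges that crossed 0 were as follows. With LPS against control, Ccl6 ran from -0.27 to 0.39. With luteolin + LPS against LPS, Ccl6 ran from -0.51 to 0.68 and Ccl9 from -0.89 to 0.0709. With luteolin against control, Ccl2 ran from -1.79 to 0.0279, Ccl3 from -0.0455 to 0.25, Ccl5 from -0.55 to 0.0484, Ccl6 from -0.0637 to 0.79, Ccl12 from -0.0854 to 0.69 and Ccl17 from -0.0754 to 0.0383. With luteolin + LPS against luteolin, Ccl6 ran from -0.71 to 0.47 and Ccl12 from -0.49 to 0.34. In the interaction, Ccl2 ran from -2.09 to 0.0475 and Ccl6 from -0.87 to 0.31.

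The replicate block changed the calls of Ccl7 for LPS against control (adjusted p = 0.0171), Ccl12 for luteolin + LPS against LPS (0.0489) and Ccl2 for luteolin + LPS against luteolin (0.0184), all by limma, and no other call of the 9 genes. With 3 arrays per condition, differences smaller than their intervals were not detectable, and signals under 50 give only bounds.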
